A study of Homo sapiens with 3 samples.

Results

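Genes for collagens, laminins, integrins, other extracellular matrix proteins and the enzymes that modify collagen were followed in HEK293 cells. The genes were picked by a rule on symbols that holds no count threshold. They are all collagen chain, laminin chain and integrin subunit genes in the count table, together with 16 further genes: FN1, NID1, NID2, AGRN, HSPG2, SPARC, TIMP1, TIMP2, TIMP3, LOXL2, PLOD1, PLOD2, PLOD3, P4HA1, P4HA2 and SERPINH1. In all, 71 of the 17595 endogenous genes in the table belonged to the set. HEK293 is a human line derived from embryonic kidney, and the labels name no treatment or transgene beyond culture in DMEM with glutamine and fetal calf serum. The 3 libraries form 1 group with no second condition. Each began with 1000 lysed cells and spiked control RNA, and material worth 100 of these cells went into a PCR of 18 cycles. RNA 5′ ends were counted per gene, and the column headings give the libraries the numbers 20, 21 and 23.

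The extracellular matrix is built from secreted chains that assemble into polymers. Type IV collagen and laminin form the networks of basement membranes, nidogens, agrin and perlecan link those networks, and fibrillar collagens give tissues tensile strength. Collagen chains are hydroxylated in the endoplasmic reticulum by prolyl 4-hydroxylases and lysyl hydroxylases, fold with the help of the chaperone HSP47, and are cross-linked outside the cell by lysyl oxidases. Integrins are receptors made of 1 alpha and 1 beta subunit that bind matrix proteins and anchor the cytoskeleton to them, and TIMPs inhibit the metalloproteinases that degrade matrix.

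Library 20 held 1475769 counts without spikes, library 21 held 1330877 and library 23 held 1545594. Levels are given as counts per 1000000 endogenous counts (CPM), and 1 count equals 0.647 to 0.751 CPM. The labels do not tell separate cultures from repeats of 1 culture, so SDs and intervals describe the spread of these 3 samples, possibly a technical one. Of 8 check genes known from this line, among them the neurofilament genes NEFL and NEFM, 7 averaged at least 10 CPM. The other, INA, had 7, 5 and 6 counts, or 4.13 CPM. Of 10 fibroblast and mural markers, 8 endothelial markers and 10 blood markers, 0 reached that level. Their summed levels ranged over the libraries from 2.25 to 4.07 CPM, from 1.29 to 2.71 CPM and from 2.71 to 6.01 CPM, and PDGFRA, PDGFRB, THY1, PECAM1, CDH5 and PTPRC were not listed. In such bulk libraries, fewer cells with an RNA and less of it per cell cannot be told apart.

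The type IV collagen genes come in head-to-head pairs, and the bases between their RefSeq starts are shown because 2 such pairs had counts on both sides. The 100 bases before the RefSeq start are shown for the 3 most counted members, ITGAE, TIMP1 and PLOD2, and for LAMC1, the most counted matrix chain. Sequences are RefSeq's (GRCh38.p14), 5′ to 3′ on the strand given. Capitals mark motifs searched on both strands, so some stand as their reverse complement. They were the TATA motif (TATAAA), the CAAT box (CCAAT) and the GC box (GGGCGG), and marked matches do not overlap.
COL4A1-COL4A2, chr13:110307158-110307283, plus strand: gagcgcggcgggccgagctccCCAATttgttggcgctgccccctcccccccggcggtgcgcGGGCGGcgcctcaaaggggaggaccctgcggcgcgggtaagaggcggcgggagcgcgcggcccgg
COL4A6-COL4A5, chrX:108439588-108439837, plus strand, the part nearest COL4A5: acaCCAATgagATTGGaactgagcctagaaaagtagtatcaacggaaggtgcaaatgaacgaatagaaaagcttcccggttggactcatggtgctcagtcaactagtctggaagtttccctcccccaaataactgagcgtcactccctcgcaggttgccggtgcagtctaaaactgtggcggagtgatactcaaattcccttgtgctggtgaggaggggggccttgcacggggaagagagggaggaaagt
ITGAE, chr17:3801189-3801288, minus strand: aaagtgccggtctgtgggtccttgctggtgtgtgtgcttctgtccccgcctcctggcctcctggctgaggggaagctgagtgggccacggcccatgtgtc
TIMP1, chrX:47582336-47582435, plus strand: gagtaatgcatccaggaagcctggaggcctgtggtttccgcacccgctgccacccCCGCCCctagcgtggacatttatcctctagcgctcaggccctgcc
PLOD2, chr3:146161185-146161284, minus strand: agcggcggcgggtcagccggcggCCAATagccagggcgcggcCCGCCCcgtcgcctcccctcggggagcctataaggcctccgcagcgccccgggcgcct
LAMC1, chr1:183023320-183023419, plus strand: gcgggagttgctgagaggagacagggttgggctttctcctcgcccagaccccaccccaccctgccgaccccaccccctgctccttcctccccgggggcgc

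Within 250 bases before the start, 32 of the 54 members with a promoter in the RefSeq table held GGGCGG, or 59.3%, against 42.3% of the 27305 promoters in that table. CCAAT was found in 25.9% of the members' promoters and 33.04% of all, and TATAAA in 9.26% and 11.1%. The median GC content of these windows was 68.6% for the members and 58% for all genes, and its part in these shares was not tested. In the 100 bases printed, ITGAE and LAMC1 held no match. A match is a description and not a binding site.

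Most members were counted at low levels. Together they took 0.0796% ± 0.0015 of endogenous counts (SD, n = 3), 1174 counts in library 20, 1040 in library 21 and 1253 in library 23. Of the 71 members, 19 averaged at least 10 CPM, which is 26.8%, against 44.6% of all listed genes. The median member had 13 pooled counts over the 3 libraries, against 31 for the median gene of the table. At the low end, 18 of the 71 members had only 1 to 3 pooled counts, against 4278 of all 17595 genes. A count in each library was found for 52 of the 71 members, against 72.6% of all genes. Both counts were near the shares over the table, so they do not set the members apart. The pair ITGAE and TIMP1 alone gave 35.3% ± 2.24 of the members' counts.

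**Figure D1:**
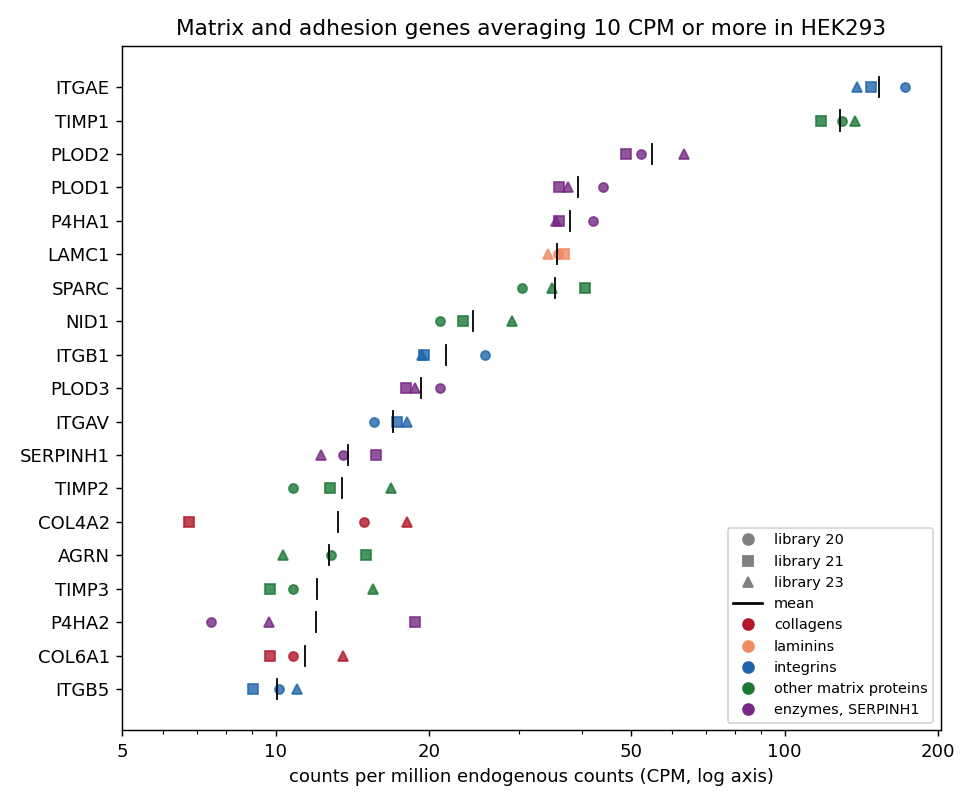
Level of the 19 members that averaged at least 10 CPM, in CPM on a log axis, with 1 point per library and a line at the mean. ITGAE and TIMP1 lie above 100 CPM in each library, PLOD2 follows between 48.8 and 63.4 CPM, and the others lie between 6.76 and 44.0 CPM.

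The enzymes that modify collagen chains were among the better counted members. PLOD2, a lysyl hydroxylase that acts on collagen telopeptides, had 52.2, 48.8 and 63.4 CPM in libraries 20, 21 and 23. PLOD1, which hydroxylates lysines of the triple helix, had 44.0, 36.1 and 37.5 CPM. PLOD3, which also carries glycosyltransferase activity, had 21.01, 18.0 and 18.8 CPM. The 3 lysyl hydroxylase genes thus kept the order PLOD2, PLOD1, PLOD3 in every library, with no overlap of their ranges. P4HA1, the catalytic alpha subunit of the main prolyl 4-hydroxylase, had 42.0, 36.1 and 35.6 CPM. Its paralog P4HA2 had 7.45, 18.8 and 9.71 CPM, and was lower than P4HA1 in every library. SERPINH1, which encodes HSP47, had 13.6, 15.8 and 12.3 CPM. LOXL2, a lysyl oxidase of the extracellular space, had 0, 4 and 6 counts. In the annotation PLOD3 overlaps ZNHIT1 (626 pooled counts) and P4HA2 overlaps PDLIM4 (55) on the opposite strand, so their counts are uncertain without known use of strand. LOXL2 overlaps ENTPD4 (38 pooled counts) on the same strand, so its counts are uncertain too. In all, 16 members overlap another listed gene, 13 of them one with more counts.

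The differences between these enzymes were given 95% intervals from limma's fit across the 8163 genes that passed the filter on low counts. Each interval joins the standard errors of its 2 genes, moderated over all these genes, as if the 2 were independent. It leaves out their pairing by library, so it does not measure the spread of the pair's own ratio. Intervals could be computed for 9 of 40 pairs of members, and 8 of the 9 intervals excluded 0, or 88.9%, against 84.6% of all pairs of genes past the filter. A pair of genes taken anywhere in the table thus differed about as often. Since tags mark 5′ ends, counts were not divided by length, and the value per kb of the longest annotated transcript is given beside each as a second scale. Tags of 5′ ends need no division by length, so counts are the main scale. Values per kb show only how far a result depends on that choice. On the log2 scale of counts, PLOD1 minus PLOD2 was -0.48 (interval -0.80 to -0.15), and per kb it was -0.09 (-0.42 to 0.23), where the interval held 0. PLOD3 minus PLOD2 was -1.49 (-1.87 to -1.10) by counts and -1.09 (-1.48 to -0.70) per kb. PLOD1 minus PLOD3 was 1.01 by counts (0.60 to 1.42) and 1.00 per kb (0.59 to 1.41). P4HA1 exceeded P4HA2 by 1.74 by counts (1.29 to 2.18), a 3.33-fold difference, and by 1.97 per kb (1.52 to 2.42). SERPINH1 minus P4HA1 was -1.43 by counts (-1.86 to -1.002) and -1.74 per kb (-2.17 to -1.31). The per-library log2 ratio of P4HA1 to P4HA2 had an SD of 0.76, the widest of the 9, since library 21 had 25 P4HA2 counts against 11 and 15. The interval of that pair rests on a standard error of 0.23. For PLOD1 and PLOD3 the standard error was 0.21, though the SD of their ratio was only 0.04. The call for PLOD1 and PLOD2 was lost without library 23, at -0.34 (-0.72 to 0.04). These intervals hold no allowance for unequal capture of different RNAs.

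**Figure D2:**
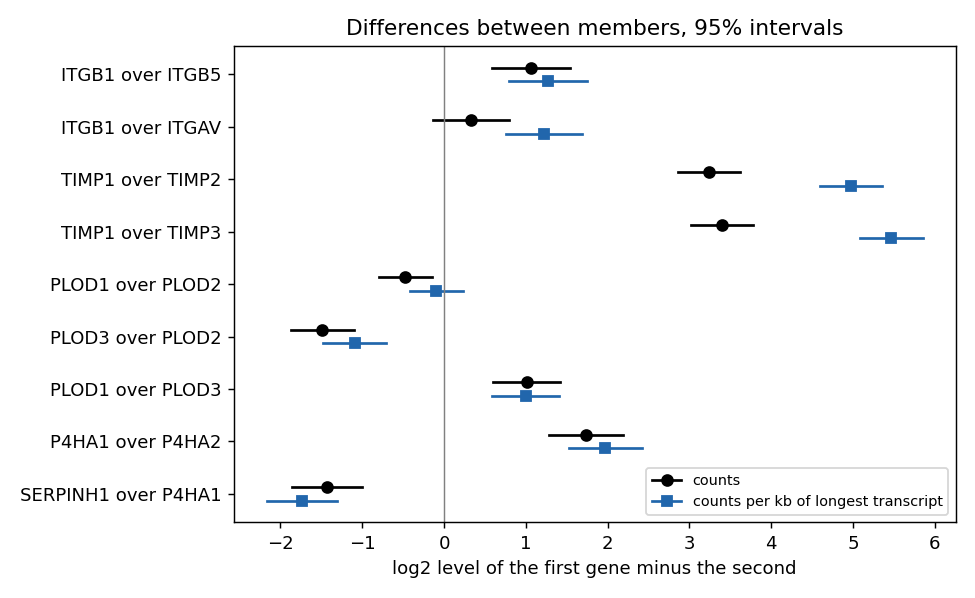
Difference in log2 level between 2 members (first minus second) with limma 95% intervals, by counts (black circles) and per kb of the longest annotated transcript (blue squares), for the 9 pairs with both genes past the filter. By counts the interval of ITGB1 over ITGAV holds 0, and per kb that of PLOD1 over PLOD2 does.

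The enzymes and SERPINH1, without LOXL2, had more counts than the collagen chains. Their summed counts exceeded those of all 26 listed collagens by 2.49-fold, 2.18-fold and 1.81-fold in libraries 20, 21 and 23, and per kb by 4.28-fold, 3.76-fold and 2.92-fold. Of the 17 genes in a list of further helpers of collagen synthesis and secretion, 16 were listed. Of these, 12 averaged at least 10 CPM, against 44.6% of all listed genes. PPIB, a prolyl isomerase of the endoplasmic reticulum, reached 396 ± 15.3 CPM, and P4HB, the beta subunit of prolyl 4-hydroxylase and a protein disulfide isomerase, reached 195 ± 6.89 CPM (SD, n = 3 each). SEC13, a coat protein of COPII vesicles, had 137 ± 3.47 CPM and TMEM38B, an ion channel of the endoplasmic reticulum, 107 ± 14.6 CPM. Several of these proteins serve general secretion as well. Of 14 enzymes and cofactors that process or cross-link collagen outside the cell, 11 were listed and 2 averaged at least 10 CPM. They were PCOLCE2, an enhancer of procollagen cleavage, at 23.2 ± 5.18 CPM and PXDN, a peroxidase that cross-links type IV collagen, at 15.2 ± 5.37 CPM. LOXL3 had 10, 4 and 8 counts and LOX had 2, 5 and 1.

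Collagen chains were few and low. Of 44 collagen chain genes, 26 were listed. Of these, 2 averaged at least 10 CPM, against 44.6% of all listed genes. Only 1 to 3 pooled counts were found for 9 of them, against 4278 of all 17595 genes. The collagens together had 72.5, 79.6 and 97.7 CPM in libraries 20, 21 and 23. By class, the 5 listed type IV chains summed to 27.4 ± 4.86 CPM, the 7 listed fibrillar chains to 20.0 ± 2.87 CPM and the 3 listed type VI chains to 15.9 ± 2.03 CPM (SD, n = 3). Type IV counts exceeded fibrillar counts 1.44-fold, 1.22-fold and 1.46-fold in the 3 libraries, and per kb 1.23-fold, 1.19-fold and 1.35-fold.

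COL4A2, a chain of the ubiquitous type IV heterotrimer, had 22, 9 and 28 counts in libraries 20, 21 and 23, or 13.3 ± 5.85 CPM. COL4A1, its partner chain, had 6, 6 and 10 counts, or 5.01 ± 1.28 CPM. COL4A1 was lower than COL4A2 in each library, with a mean log2 ratio of counts of -1.26 ± 0.64 (SD, n = 3) and of -1.29 per kb. These and the further ratios without an interval add 0.5 to each count and have no test. The common trimer is known to hold more COL4A1 than COL4A2 chains. Their RefSeq starts lie 127 bases apart on opposite strands, in the sequence printed above, which holds 1 CCAAT and 1 GGGCGG. The annotation used here has both genes overlapping, so without known use of strand the split of tags between them is uncertain. The second pair, COL4A5 and COL4A6, has starts 380 bases apart. COL4A5 had 6, 9 and 9 counts and COL4A6 had 1, 9 and 4, so their counts overlapped. The Goodpasture antigen chain COL4A3 had 1 count in all, and COL4A4, its neighbour and partner, was not listed.

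Among the fibrillar collagens COL2A1, the chain of cartilage type II collagen, was the most counted with 17, 9 and 16 counts, or 9.54 ± 2.48 CPM. COL1A1, a chain of type I collagen, had 4, 6 and 7 counts. Its partner COL1A2 and the type III chain COL3A1 were not listed. COL27A1 had 1, 5 and 9 counts, COL5A1 had 7 pooled counts, COL5A2 had 3, COL11A2 had 2 and COL24A1 had 1. Type VI collagen needs 3 different chains. COL6A1 had 16, 13 and 21 counts, or 11.4 ± 1.97 CPM, and COL6A2 had 3, 6 and 4, while COL6A3, the usual last chain, was not listed and its alternative COL6A5 had 6 pooled counts. COL6A1 exceeded COL6A2 in each library, by a mean log2 ratio of 1.85 ± 0.69 (SD, n = 3) and of 1.56 per kb. COL18A1, the basement membrane collagen that yields endostatin, had 14, 11 and 15 counts, or 9.15 ± 0.78 CPM, and its relative COL15A1 was not listed. The other listed collagens ranged from 1 to 13 pooled counts, with COL9A3 highest. On the opposite strand in the annotation, COL18A1 overlaps SLC19A1 (220 pooled counts) and COL9A3 overlaps TCFL5 (33), so their counts depend on the use of strand.

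LAMC1 was the most counted laminin chain. All 12 laminin chain genes were listed, and together they had 67.1, 75.1 and 73.8 CPM. LAMC1, the gamma chain of most laminin trimers, had 53, 49 and 53 counts in libraries 20, 21 and 23, or 35.7 ± 1.28 CPM. That was 49.7% ± 3.57 of all laminin counts, and 49.0% ± 3.69 per kb. Of the beta chains, LAMB1 had 8, 13 and 14 counts and LAMB2 had 5, 2 and 3. The alpha chains were spread more evenly, with 36 pooled counts for LAMA5, 29 for LAMA4, 21 for LAMA1, 19 for LAMA3 and 2 for LAMA2. Each laminin has 1 chain of each kind, and the gamma chains outnumbered the alpha chains by 1.69-fold, 1.43-fold and 1.38-fold and the beta chains by 4.15-fold, 3.33-fold and 2.89-fold in counts. Per kb these ratios averaged 1.77 ± 0.176 and 2.54 ± 0.464 (SD, n = 3). LAMC1 stood above LAMA5 in each library, by a mean log2 ratio of counts of 2.10 ± 0.40 and of 2.63 per kb. LAMB1 minus LAMC1 was -2.14 ± 0.45 (SD, n = 3) in counts and -1.69 per kb. LAMB3, a beta chain of epidermal laminin, had 1 pooled count. LAMB1 overlaps DLD and LAMA5 overlaps ADRM1 on the opposite strand in the annotation. DLD had 940 and ADRM1 659 pooled counts, so counts of both laminin genes depend on the use of strand.

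**Figure D3:**
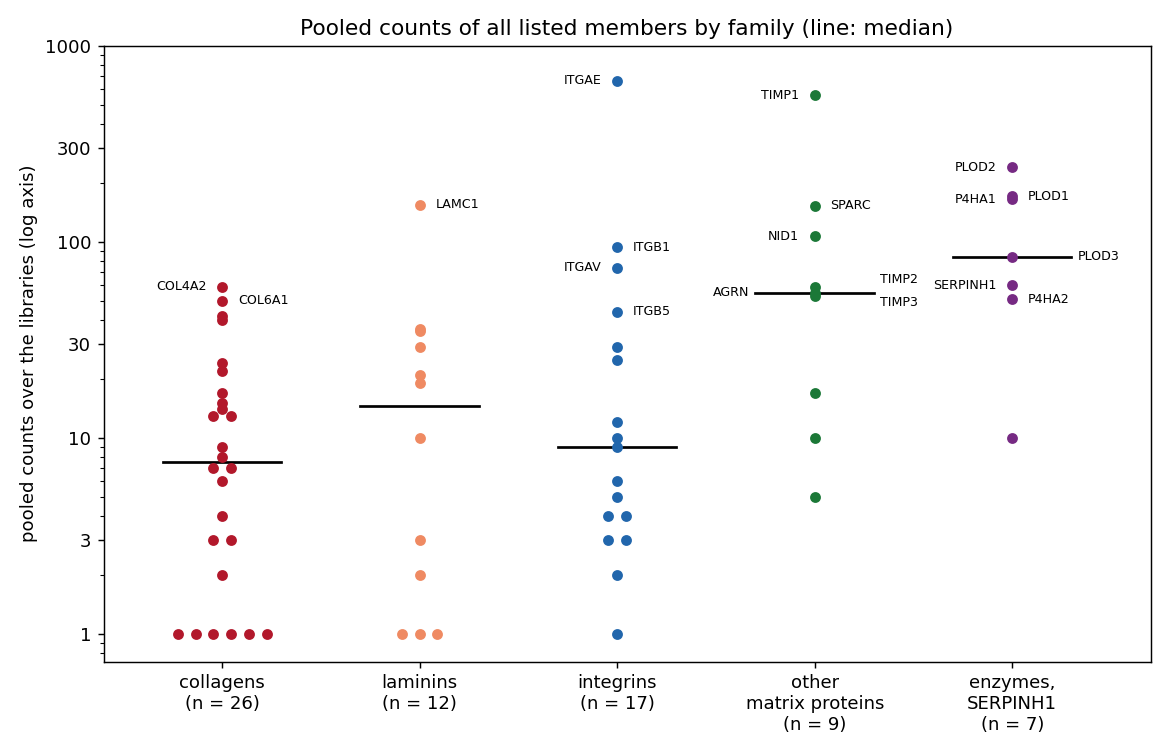
Pooled counts over the 3 libraries of each of the 71 listed members by family, on a log axis, with a line at the family's median and names for members averaging at least 10 CPM. The medians are 7.5 counts for collagens, 14.5 for laminins, 9 for integrins, 55 for other matrix proteins and 84 for enzymes with SERPINH1.

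The integrin counts were led by ITGAE. Of 26 integrin subunit genes 17 were listed and 4 of these averaged at least 10 CPM, against 44.6% of all listed genes. ITGAE, which encodes the alpha E subunit of an E-cadherin receptor of intraepithelial lymphocytes, had 254, 197 and 214 counts in libraries 20, 21 and 23, or 153 ± 17.3 CPM. It gave 67.1% ± 0.735 of all integrin counts, or 72.2% ± 0.558 per kb, and was the most counted member of the whole set. ITGB7, the beta subunit that alpha E pairs with, was not listed, and neither were the leukocyte subunits ITGAL, ITGAM, ITGAX, ITGAD and ITGB2. The annotation (GENCODE 29) has 9 ITGAE transcripts, of which 2 are protein coding. It also has 2 non-coding ITGAE transcripts that start 49 and 66 bases from the start of HASPIN, a histone kinase gene on the opposite strand within ITGAE. HASPIN, listed under its older symbol GSG2, had 12, 9 and 15 counts. A count per gene does not show from which start the ITGAE tags came.

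Beta 1 and alpha V were the leading subunits of matrix-binding integrins. ITGB1, the beta subunit of most collagen, laminin and fibronectin receptors, had 38, 26 and 30 counts, or 21.6 ± 3.62 CPM. ITGAV, the alpha subunit of RGD-binding vitronectin receptors, had 23, 23 and 28 counts, or 17.0 ± 1.29 CPM. ITGB5, a beta partner of alpha V, had 15, 12 and 17 counts, or 10.06 ± 1.00 CPM, and ITGB3, another partner, was not listed. ITGB1 exceeded ITGB5 by 1.07 on the log2 scale of counts (limma interval 0.59 to 1.54) and by 1.27 per kb (0.80 to 1.75). ITGB1 minus ITGAV was 0.33 by counts (-0.14 to 0.79), an interval that holds 0, and 1.22 per kb (0.76 to 1.68). Without ITGAE, the beta subunits had 1.07, 0.732 and 0.800 times the counts of the alpha subunits in libraries 20, 21 and 23, and per kb 1.53, 1.06 and 1.19 times. The direction in libraries 21 and 23 thus depended on the scale.

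The other alpha subunits stayed under 10 CPM. Of those that bind RGD, ITGA5, the fibronectin receptor subunit, had 11, 11 and 7 counts, while ITGA2B had 6 pooled counts and ITGA8 had 3. Among laminin-binding subunits ITGA6 had 6, 7 and 12 counts, ITGA7 had 3 in each library and ITGA3 had 3 in all. The collagen-binding subunits summed to 6, 6 and 5 counts, with 10 pooled counts for ITGA2, 5 for ITGA1 and 2 for ITGA10. ITGA1 overlaps PELO (176 pooled counts) on the same strand in the annotation, so its counts are uncertain. ITGA4 and ITGA9 had 4 pooled counts each. ITGB4, the beta partner of alpha 6 in hemidesmosomes, had 9, 2 and 1 counts, and ITGB8 had 1 in all. On the opposite strand, ITGB4 overlaps GALK1 (98 pooled counts) and ITGA7 overlaps BLOC1S1 (54) and METTL7B (51), so their counts depend on the use of strand.

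Linkers, glycoproteins and TIMPs varied widely among themselves. TIMP1 had 191, 157 and 212 counts in libraries 20, 21 and 23, or 128 ± 9.66 CPM. TIMP2 had 16, 17 and 26 counts, and TIMP3, an inhibitor that stays bound to the matrix, had 16, 13 and 24. TIMP1 exceeded TIMP2 by 3.24 on the log2 scale of counts (limma interval 2.86 to 3.61), a 9.43-fold difference, and by 4.97 per kb (4.596 to 5.35). It exceeded TIMP3 by 3.40 by counts (3.02 to 3.78) and by 5.47 per kb (5.09 to 5.85). SPARC, a collagen-binding glycoprotein, had 45, 54 and 54 counts, or 35.3 ± 5.05 CPM. FN1, which encodes fibronectin, had 2, 2 and 1 counts. NID1, the nidogen that joins laminin to type IV collagen, had 31, 31 and 45 counts, or 24.5 ± 4.18 CPM, against 6, 7 and 4 for NID2. AGRN, which encodes agrin, had 19, 20 and 16 counts, against 2, 4 and 4 for HSPG2, which encodes perlecan. Each of these pairs kept its order in all libraries, with mean log2 ratios of counts of 4.61 ± 0.52 for SPARC to FN1, 2.56 ± 0.68 for NID1 to NID2 and 2.34 ± 0.56 for AGRN to HSPG2 (SD, n = 3). Per kb they were 5.91, 2.28 and 3.30. NID2 overlaps C14orf166 (1901 pooled counts) on the opposite strand.

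In the order of levels by counts, the interval of the difference to the next member excluded 0 for ITGAE, TIMP1 and PLOD2. The order came from the same counts and the intervals were not adjusted for the number of pairs, so they describe and do not test it. In library 23 ITGAE and TIMP1 had 214 and 212 counts, and without that library the interval for PLOD1 and PLOD2 held 0. ITGAE exceeded TIMP1 by 0.25 on the log2 scale of counts (limma interval 0.06 to 0.44), while per kb ITGAE had 39.6 and TIMP1 117 CPM, the other order. The order per kb rests on the longest annotated transcripts, and it is not known from which start the ITGAE tags came. The interval of the difference also excluded 0 between SPARC and NID1 (0.53, interval 0.12 to 0.93). Of 16 neighbouring pairs among the members above 10 CPM with both genes past the filter, the other 12 had intervals that held 0. Thus PLOD1, P4HA1, LAMC1 and SPARC could not be ordered step by step, and neither could the neighbours with an interval from NID1 down to ITGB5.

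Members had longer transcripts than most genes of the table. The median of the longest annotated transcript was 5858 bases for the members and 3388 for all listed genes with a length. Of 18 members with 2 to 4 kb, 10 averaged at least 10 CPM, against 4 of 19 with 4 to 6 kb and 4 of 33 with 6 kb and over. Over the 14877 listed genes with a length the shares were 56.3%, 54.1% and 52.9% in the same length classes. At any length 51.9% of these genes averaged at least 10 CPM, against 44.6% of all listed genes. HSPG2, with 14327 bases, averaged 2.32 CPM, and LAMA5, with 11426 bases, 8.24 CPM, while LAMC1 reached 35.7 CPM with 7889 bases. Reverse transcription was primed at the poly(A) tail, per the labels. The part of transcript length in the levels of the members was not tested.

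**Figure D4:**
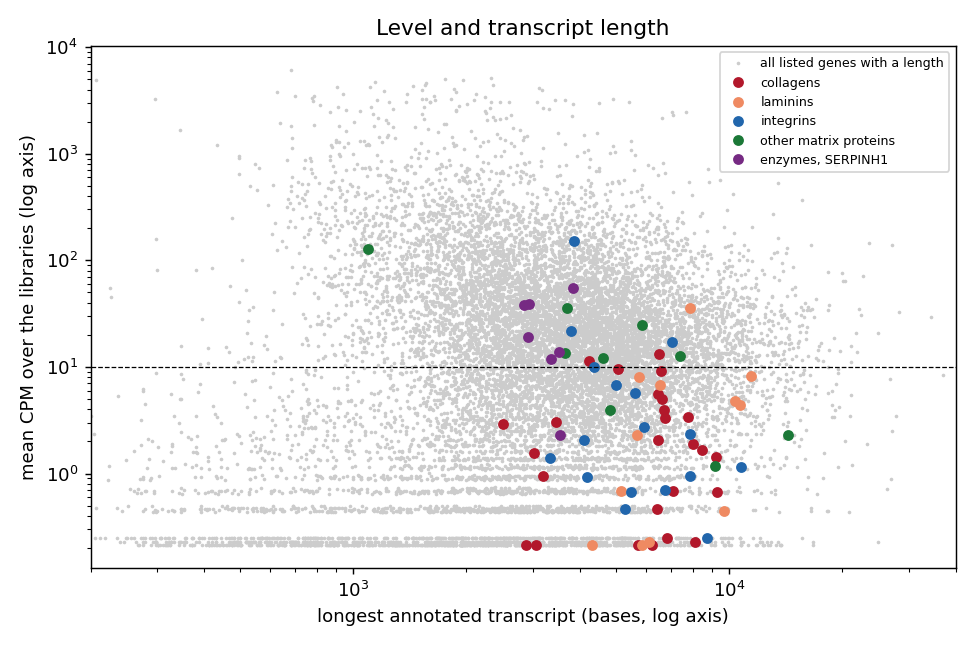
Mean CPM over the 3 libraries against the longest annotated transcript in bases, both on log axes, for all listed genes with a length (grey) and for the 71 members by family (colour), with a dashed line at 10 CPM. Members of 6 kb and over lie mostly below the line, 4 of 33 above it, while grey points of that length lie on both sides.

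No difference between libraries was detectable in any member. Of the 41 members with at least 10 pooled counts, 0 differed between any 2 libraries by an exact binomial test (2-sided, Benjamini-Hochberg over the 3 pairs and the whole table, adjusted p under 0.05), against 0.56% of all 11424 genes tested. A chi-square test over the 3 libraries likewise called 0 members (4 at an unadjusted p under 0.05), and 0.727% of all genes. Unadjusted exact p-values under 0.05 were found for 7 members, in 8 of 123 member and pair tests. That share, 6.50%, was close to the 6.94% over all genes and pairs. The lowest unadjusted value belonged to COL4A2 (exact binomial p = 0.0078, adjusted p = 0.45), which was lower in library 21 than in the other two. COL4A6 had an exact binomial p of 0.0086, ITGB4 of 0.010 and P4HA2 of 0.011 (adjusted p = 0.46, 0.48 and 0.49). The 16 members between 10 and 50 CPM had a median coefficient of variation of 15.6%, against 15.7% for all genes in that range. ITGB5, at 10.06 CPM, rested on 12 to 17 counts per library, so depth limits what could be detected in most members.

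Many proteins that act with integrins were well counted. All 25 genes of a list of integrin adhesion proteins were listed and 17 averaged at least 10 CPM, or 68%. They were led by ITGB1BP1, which binds the tail of beta 1, at 150.0 ± 8.95 CPM, ACTN4, an alpha-actinin, at 105 ± 14.4 CPM, ZYX, which encodes zyxin, at 78.9 ± 14.6 CPM, and the integrin-linked kinase gene ILK at 63.0 ± 11.2 CPM (SD, n = 3 each). TLN1, which encodes talin, an activator of integrins, had 26.4 ± 5.21 CPM. Of 19 other matrix receptors, all listed, 9 averaged at least 10 CPM, or 47.4%, near the 44.6% of all listed genes. RPSA, a ribosomal protein also described as a laminin receptor, had 1651 ± 96.4 CPM, the tetraspanin gene CD151 111 ± 11.7 CPM, CD47 105 ± 5.50 CPM and the syndecan gene SDC2 59.6 ± 6.32 CPM. DAG1, which encodes the laminin receptor dystroglycan, had 24.4 ± 5.82 CPM, and CD44 had 2 pooled counts. Over all lists of further genes, check genes and markers used here, 90 genes were tested between libraries. RPSA alone was called by the exact binomial test (adjusted p = 0.0228), against 0.56% of all 11424 genes tested. It had 7193 pooled counts, the most of these genes.

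Few genes of matrix proteolysis and of further matrix proteins averaged at least 10 CPM. Of 28 genes of proteolysis, 21 were listed and 6 of these averaged at least 10 CPM, against 44.6% of all listed genes. The list summed to 569 to 587 CPM over the libraries, most of it from BSG. That gene, an inducer of metalloproteinases with other roles, had 457 ± 9.37 CPM. It was followed by the plasminogen activator gene PLAT at 22.0 ± 3.55 CPM, ADAMTS1 at 20.8 ± 2.14 CPM and the sheddase gene ADAM17 at 19.3 ± 5.00 CPM (SD, n = 3 each). The gelatinase genes MMP2 and MMP9 had 3 and 1 pooled counts, and MMP14 was not listed. Of 40 other matrix glycoproteins and proteoglycans, 31 were listed and 4 of these averaged at least 10 CPM, against the same 44.6%. These were FBLN1 at 23.1 ± 3.61 CPM, LTBP4 at 16.0 ± 3.05 CPM, FBN2, a fibrillin of developing tissues, at 15.0 ± 2.58 CPM and VCAN, which encodes versican, at 13.04 ± 3.67 CPM.

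**Figure D5:**
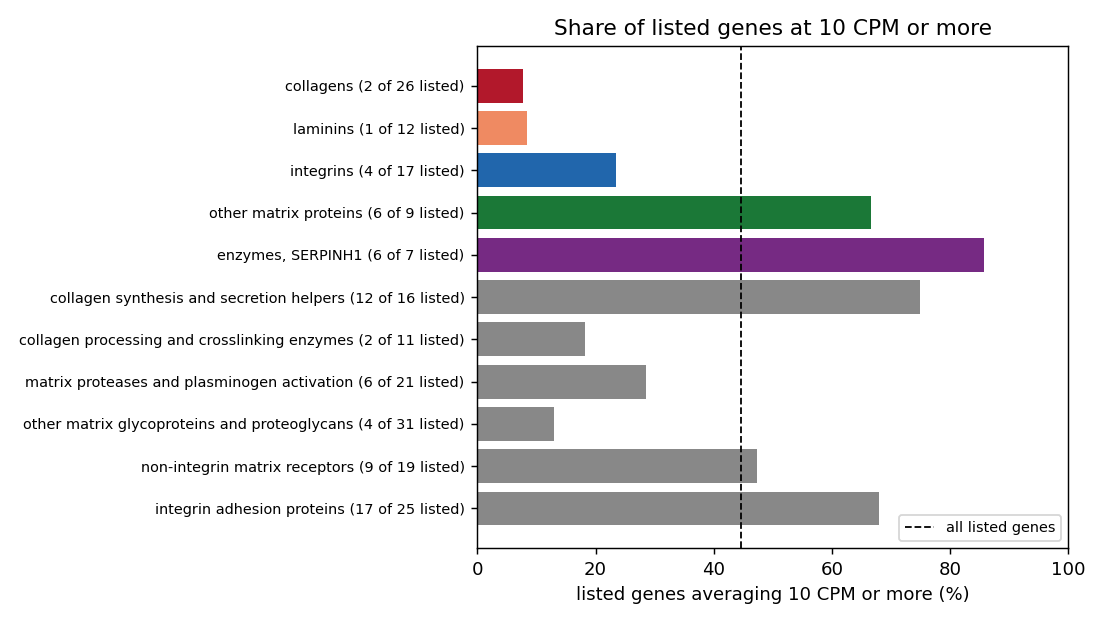
Percentage of listed genes that averaged at least 10 CPM in each member family (coloured bars) and in 6 lists of related genes (grey bars), with a dashed line at the 44.6% of all listed genes. Collagens (2 of 26) and laminins (1 of 12) lie lowest, and enzymes with SERPINH1 (6 of 7) and helpers of collagen synthesis (12 of 16) lie highest.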

How the data were processed

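The authors deposited 1 table of raw counts per gene and spike for 3 libraries, as whole numbers without normalization. The tools named are STAR 2.4.0a and cutadapt 1.2.1, with the build hg19 (GRCh37), per the submitters' processing notes. Not given in the sources used here: the counting tool, its annotation and strand setting, and whether molecular identifiers were collapsed. A count may thus be a read or a molecule. The table lists only genes with at least 1 count, and columns carry no replicate number.

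The 80 spike rows were left out of library sizes. Intervals came from limma 3.58.1 on log2 CPM with a pseudocount of 0.5, with trend, over genes passing filterByExpr of edgeR 4.0.16 (minimum count 10). DESeq2 1.42.0 gave size factors for an alternative. Work was done in R 4.3.3 and Python 3.11.15 with scipy 1.17.1. Gene and transcript names were matched to GENCODE 29 and RefSeq, whose build (GRCh38) is not the authors'. The tests were tried on simulated data. With 200 genes changed, the exact test recovered 43% at 1.5-fold and 91% at 2-fold, with 5 and 31 unchanged genes called. The changed genes were better counted than most members, so these shares do not hold for most members. The 95% intervals held the true difference in 94.55% of 2000 simulated pairs, in which the 2 genes varied independently.

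The rule for members uses symbols only, but it, the pairs and the lists were chosen with earlier results of these data known. Named genes are members averaging at least 10 CPM, the pairs, and up to 4 leading genes of each list. Other members, TLN1, DAG1, CD44, LOX, LOXL3, the MMP genes, HASPIN and the genes that overlap members were named after their values were seen. Exact p-values rest on counting error. Intervals from limma rest on the spread of each gene between libraries, moderated over all genes and not paired by library. Not every member is reported here by name.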

Additional observations from a re-analysis of the deposited data

How the results depend on the processing

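No member differed between libraries with a minimum of 20 or 1 pooled counts, with TMM or DESeq2 library sizes, by chi-square or without any 1 library (0 to 0 members). The count of pairs whose limma interval excluded 0 was 8 of 9 with a pseudocount of 2, with voom weights, with edgeR's quasi-likelihood dispersion and per kb, and 10 of 11 without library 20, 8 of 9 without library 21 and 8 of 10 without library 23. Without the filter on low counts it was 25 of 33, because more pairs could be fitted. None of the 9 pairs with an interval turned its direction under these settings. Members took 0.0767% of counts with spikes in the denominator, 0.0643% without ITGAE, and 0.0788% to 0.0803% without 1 library. Integrins took 0.0228%, and 0.0075% without ITGAE, a choice made after the data were seen, with 0.0215% to 0.0237% without 1 library. The count of members at 10 CPM was 19 with TMM or spike scaling, 14 when required in every library, and 18 to 19 without 1 library. No paired analysis was possible because there is 1 group. Low counts limit most members, and unlisted genes have no stated limit.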
